A study of Homo sapiens with 8 samples.

Results

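The regions described here are 2049 stretches of open chromatin that lie between genes and were more accessible after hyperosmotic stress. They were chosen from 129536 peaks of an ATAC-seq table, of which 36382 were autosomal and lay between genes. A peak was taken when its CPM (counts per 1000000, the count divided by the library's total count and scaled up) were higher in every sorbitol library than in every vehicle library. Its mean CPM also had to be at least 2 times higher after sorbitol, and it had to overlap no RefSeq gene widened by 1 kb. Since these values chose the peaks, all CPM and fold values of the gained peaks below are a description, without a test.

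The cells were HEK293, a line from human embryonic kidney, and per the labels' genotype field every library came from cells carrying eGFP-YAP, a fluorescently tagged form of the Hippo pathway coactivator YAP. The titles name only HEK293, and the library names carry "wt". The 4 vehicle libraries were collected at 0 h and the 4 sorbitol libraries after 1 h in 0.2 M sorbitol, an osmolyte that stays outside the cell and draws water out of it. The series design also mentions 1 h of serum starvation before sorbitol. No source used here says whether the replicates came from separate cultures, so spread between libraries may be technical in part.

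ATAC-seq marks open chromatin by letting a transposase insert sequencing adapters wherever DNA is not covered by nucleosomes. Open regions between genes include enhancers, which can act on promoters over long distances, insulators bound by CTCF, repeats, and starts of transcripts that are not annotated. The nearest gene of such a region is therefore a landmark and not necessarily its target. Hyperosmotic stress shrinks the nucleus and compacts chromatin, and it is also known for transcription that runs past the ends of genes into the regions between them.

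Library totals ranged from 14757015 to 19831471 counts in peaks with vehicle and from 11522266 to 14355727 with sorbitol. Every sorbitol library was thus smaller than every vehicle library, and the part of depth in the gains was not tested. The gained peaks took up 0.237% ± 0.0179 of all counts with vehicle and 0.567% ± 0.0244 with sorbitol (SD, n = 4). The values were 0.231%, 0.220%, 0.234% and 0.262% for vehicle replicates 1 to 4 and 0.587%, 0.553%, 0.589% and 0.540% for sorbitol replicates 1 to 4. Vehicle 4 was thus the highest of its group and sorbitol 4 the lowest. Each library was also placed between the vehicle mean (0%) and the sorbitol mean (100%), by medians over the gained peaks of log2 of CPM plus 0.1. A library was left out of its own group's mean, so the end points differ between libraries. Vehicle 4 lay at 20.1%, against -9.66% to -0.321% for the other vehicle libraries. Sorbitol 4 lay at 92.5%, against 98.3% to 108.3% for the other sorbitol libraries.

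The rule was repeated on 6 libraries, and the vehicle and sorbitol libraries of the remaining replicate number were read off. They share only a number and are not matched, and other combinations were not left out together. Leaving out replicate 1, 2 or 3 of both groups chose 2197 to 2218 peaks. Of these, 95.4% to 96.1% were higher in the sorbitol library left out than in the vehicle library left out, with median ratios of 2.18 to 2.19. Over all intergenic peaks the corresponding shares were 62.2% to 64.5%. Leaving out replicate 4 chose 3191 peaks, and 82.5% of them were higher in sorbitol 4 than in vehicle 4, with a median ratio of 1.56. The share over all intergenic peaks in that pair was 51.9%. How vehicle 4 and sorbitol 4 came to lie closer together was not tested.

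Gained peaks outnumbered lost ones between genes, mostly among weak peaks. The gained peaks made up 5.63% of intergenic autosomal peaks, while the mirror rule, with every vehicle library above every sorbitol library and at least a 2-fold drop, found 152 lost peaks (0.418%). Among all autosomal peaks the same rules took 5.70% as gained and 0.510% as lost. By edgeR's quasi-likelihood test over the whole table, 29.1% of 129487 tested peaks had a Benjamini-Hochberg adjusted p under 0.05, with 16.0% higher and 13.1% lower. Scaled by library totals, as CPM are, 26162 peaks were called higher and 12650 lower, beside 20701 and 17016 with TMM scaling, and the rule itself took 1608 intergenic peaks with TMM sizes. Of the 2046 gained intergenic peaks that passed the filter on low counts, 2045 were called higher, which the choice of peaks largely fixes. Their median log2 fold change was 1.16, beside 0.06 for all intergenic peaks.

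Most gained peaks were weak and narrow. Their median CPM was 0.893 in vehicle and 2.17 after sorbitol, against 2.56 and 2.84 for the other intergenic peaks. Their median width was 270 bp, beside 376 bp for all intergenic peaks, and 215 of them (10.49%) had the minimum width in the table, 200 bp. The median ratio of means was 2.38, with quartiles at 2.16 and 2.73. A ratio of at least 3 was reached by 286 peaks (14.0%) and of at least 4 by 35 (1.71%), while 1255 (61.2%) stayed under 2.5.

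Precision at single peaks was limited by these low levels. The median of the mean count per library was 20.75, and only 149 peaks (7.27%) averaged 50 counts or more per library, against 37.0% of all intergenic peaks. The median coefficient of variation was 28.9% among vehicle libraries and 20.8% among sorbitol libraries. PCR reads without molecular identifiers are not independent molecules, so counting error is a lower limit. In the weakest quintile of intergenic peaks, with mean counts up to 21.75, 15.03% were gained, and in the strongest quintile, from 83.75 counts, 0.592% were. The weakest quintile held 1108 gained and 35 lost peaks and the strongest 43 gained and 26 lost, so the excess of gains lay mainly in weak peaks.

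Peaks in other positions were gained by the same rule, and the shares can be set side by side by strength. Peaks within 1 kb of a gene end were gained in 1.83% of cases (446 peaks) and peaks inside genes in 7.22% (4612 peaks). In the weakest quintile, defined by the counts of intergenic peaks, the shares were 14.5% at gene ends, 19.3% inside genes and 15.03% between genes. In the strongest quintile they were 0.0902%, 0.761% and 0.592%. That quintile is open at the top and held 15529 gene-end peaks. The median of the mean count over all peaks of a class was 163.875 at gene ends and 37.5 between genes. Strength was thus not matched in that quintile. Gained peaks of all 3 classes had median ratios between 2.38 and 2.40 and median widths of 270 to 271 bp.

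The 10 gained peaks with the widest gap between the lowest sorbitol and the highest vehicle library had sorbitol means of 15.7 CPM or more and widths of 602 bp or more. The widest gap lay on chromosome 7 at 121298762 to 121299414, 1319 bp downstream of CPED1, which encodes a protein with cadherin-like and PC-esterase domains. Its vehicle libraries had 5.65, 6.38, 6.45 and 4.405 CPM and its sorbitol libraries 23.2, 19.4, 19.4 and 24.7. The lowest sorbitol value was 12.9 CPM above the highest vehicle value, and the log2 fold change was 1.83 (standard error 0.12).

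In a wide interval without coding genes, chromosome 6 had a gained peak at 94680571 to 94681394, which was 107311 bp from the lncRNA gene LOC105377901 and 896140 bp from MANEA, a Golgi mannosidase gene. It had 12.9, 12.99, 13.5 and 12.0 CPM in vehicle and 29.4, 27.4, 26.2 and 26.0 after sorbitol. On chromosome 4 at 66574650 to 66575556, the peak with the highest level of all gained peaks had 13.2, 16.0, 16.8 and 15.2 CPM in vehicle and 28.6, 33.3, 31.6 and 33.2 after sorbitol. Its nearest gene was the pseudogene RPS23P3, 143128 bp away, and only 6 genes lay within 500 kb. Both peaks thus lay over 100 kb from the nearest gene in the annotation.

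Closer to a gene, 8547 bp upstream of RDX, was the chromosome 11 peak at 110305162 to 110306147. RDX encodes radixin, which links actin filaments to the plasma membrane. Vehicle libraries had 14.1, 13.6, 10.6 and 9.83 CPM there and sorbitol libraries 25.8, 28.7, 25.4 and 26.3. On chromosome 3 at 16533807 to 16534895, 1422 bp upstream of the lncRNA gene LINC00690, the values went from 7.49, 8.62, 7.87 and 8.74 to 22.1, 19.99, 18.4 and 21.3 CPM. RFTN1, which encodes a lipid raft protein, was the nearest coding gene there, 20107 bp away.

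Of the 10, 4 more with a lncRNA gene as the nearest are given here, and another, on chromosome 22, is described below. Their groups did not overlap, as the rule requires. The chromosome 2 peak at 234156240 to 234157324 had means of 10.3 ± 1.17 CPM with vehicle and 24.3 ± 1.26 with sorbitol (SD, n = 4). At the chromosome 7 peak spanning 115724356 to 115725028 the means were 8.14 ± 1.38 and 20.1 ± 2.69 CPM. The broadest gained peak, 1191 bp on chromosome 1 from 244767466 to 244768656, had 5.83 ± 1.70 and 16.7 ± 1.18 CPM. The chromosome 5 peak at 164187500 to 164188101 had 7.76 ± 0.633 and 16.5 ± 1.68 CPM. The chromosome 1 peak belonged to a cluster of 7 gained peaks and the chromosome 7 peak to a cluster of 5.

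**Figure D1:**
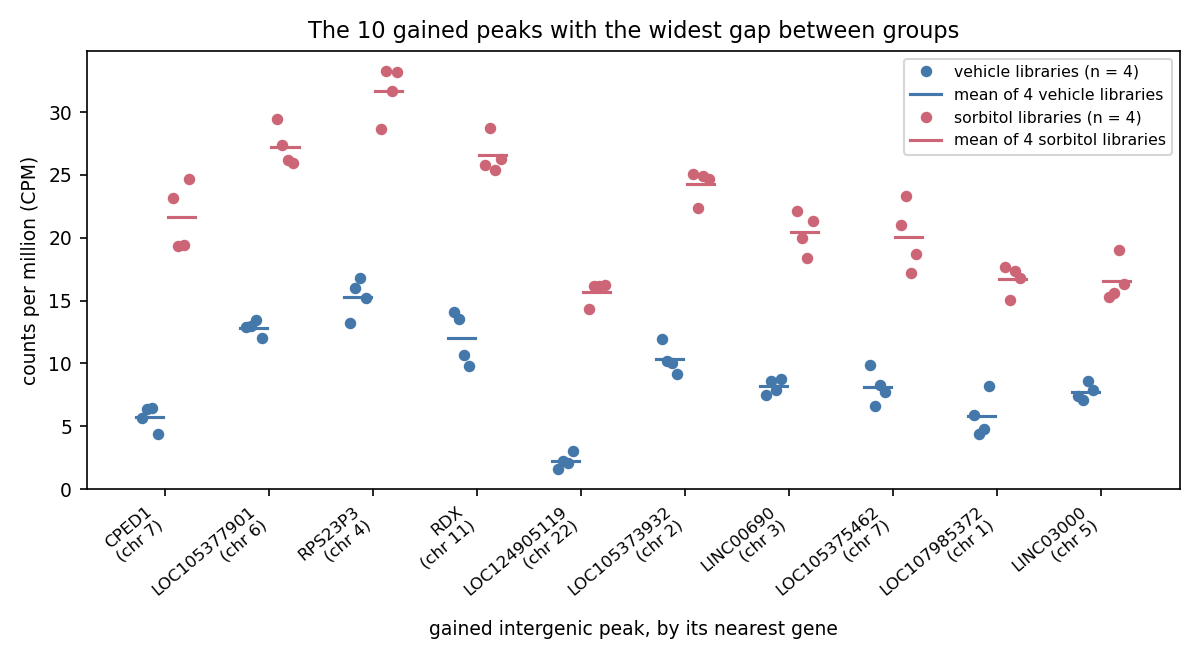
CPM (linear axis from 0) of the 10 gained intergenic peaks with the widest gap, labelled by nearest gene and chromosome; points are single libraries and bars are means of 4. In the peak at LOC124905119 on chromosome 22 vehicle libraries lie between 1.64 and 3.05 CPM and sorbitol libraries between 14.3 and 16.2 CPM.

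Among the 149 gained peaks that averaged 50 counts or more, the largest ratio belonged to the peak on chromosome 22 at 39301910 to 39302593. It lay 6098 bp past the lncRNA gene LOC124905119 and 10288 bp past the end of RPL3, which encodes a protein of the large ribosomal subunit. Vehicle libraries had 1.64, 2.24, 2.07 and 3.05 CPM and sorbitol libraries 14.3, 16.2, 16.1 and 16.2, a ratio of 6.98. It was 1 of 6 gained peaks in a cluster around RPL3. On the same side of RPL3, 4 more lay 21637 to 34399 bp from the gene, with ratios of 2.2 to 4.13, and another lay 8434 bp before the RPL3 start, with a ratio of 2.29.

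The next largest ratios were much smaller. The peak beside CPED1 had 3.78. On chromosome 13, the peak at 79791086 to 79791697 upstream of the lncRNA gene LOC124903226, by 1793 bp, had 3.24, with means of 1.85 ± 0.902 and 5.98 ± 0.955 CPM (SD, n = 4). The chromosome 8 peak at 37710192 to 37710697 had 3.23, and ZNF703, a zinc finger gene, was the nearest coding gene at 10172 bp. Upstream of TIAM2, which encodes an exchange factor of the GTPase Rac, the chromosome 6 peak at 154924978 to 154925546 had 3.20. It was 69768 bp from that gene and stood in a cluster of 4 gained peaks.

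At the 2-fold threshold itself, the members just inside were on chromosome 1. A peak at 89609972 to 89610480 had a ratio of 2.0012 and lay 5343 bp upstream of LRRC8C, which encodes a subunit of the volume-regulated anion channel. Its vehicle libraries had 2.10, 1.03, 2.02 and 3.12 CPM and its sorbitol libraries 3.12, 3.504, 4.77 and 5.15, so the groups were separated by only 0.00722 CPM. A peak at 90465017 to 90465257 had 2.0011. Just outside were peaks on chromosome 3 at 27961200 to 27961415, with 1.9998, and on chromosome 13 at 63566584 to 63566832, with 1.9996. Values on the 2 sides of the threshold were thus alike.

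Gained intergenic peaks were unevenly spread over the chromosomes. They made up 9.21% of intergenic peaks on chromosome 6 (264 peaks), 9.02% on chromosome 13 (268 peaks) and 7.80% on chromosome 3 (203 peaks). On chromosomes 17, 16, 20 and 19 the shares were 0.910%, 0.996%, 1.06% and 1.13%, from 7 to 8 gained peaks each. Within the weakest quintile of peaks the highest shares were 22.3% on chromosome 6, 20.7% on chromosome 3, 18.9% on chromosome 7 and 18.7% on chromosome 13. The lowest were 1.53% on chromosome 16 (2 of 131 peaks) and 2.76% on chromosome 20 (4 of 145). Chromosomes 22 and 17 had 2.82% (2 of 71) and 3.23% (4 of 124). They were followed by 4.90% on chromosome 21 (5 of 102) and 5.26% on chromosome 19 (5 of 95). Lost intergenic peaks showed another spread, with 16 of 620 on chromosome 19, 14 of 879 on chromosome 17 and 14 of 1332 on chromosome 11. Chromosomes 2 and 3 had 11 of 2725 and 10 of 2601. Chromosomes 6 and 12 had 1 each, of 2865 and 1283. Chromosomes 17, 19, 20 and 21 held more lost than gained peaks between genes.

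**Figure D2:**
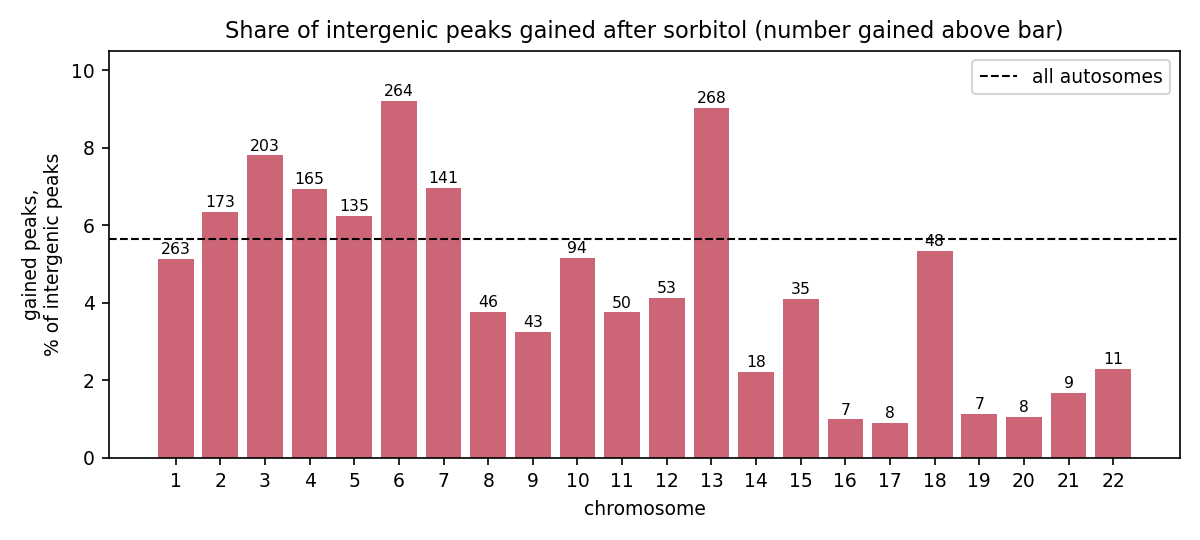
Gained peaks as a percentage of all intergenic peaks on each autosome (bars, from 0), with the number gained above each bar and the share over all autosomes, 5.63%, as a dashed line. Chromosomes 6 and 13 reach 9.21% and 9.02%, and chromosomes 16, 17, 19 and 20 stay at or under 1.13%.

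Gene-poor surroundings held a larger share of gained peaks, up to a point. Gained peaks had a median of 15 RefSeq genes within 500 kb, beside 18 for all intergenic peaks. The gained share was 8.17% where 6 to 10 genes lay within 500 kb, 6.78% with 11 to 20, 5.22% with 21 to 30 and 3.19% with over 30. In the emptiest surroundings, with 5 genes or fewer, it was 4.12%. The share of lost peaks was larger with more genes throughout, from 0.0593% with 5 genes or fewer to 0.898% with over 30.

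The relation to gene density was also read within quintiles of peak strength. In the strongest quintile of intergenic peaks, 14 of 1204 (1.16%) were gained where 10 genes or fewer lay nearby. Where over 20 did, 17 of 3933 (0.432%) were gained. In the weakest quintile the shares were 16.5% and 12.4%. In the next weakest quintile they were 6.35% (112 of 1763) and 6.95% (198 of 2849), the other way round. The remaining quintiles gave 3.43% against 2.92% and 2.42% against 1.24%. Differences between quintiles were not tested. The group of 10 genes or fewer joins the bins above that had unlike shares, 4.12% and 8.17%.

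The distance from a gained peak to the nearest gene had a median of 18359 bp, with quartiles at 7666 and 42595 bp. For all intergenic peaks the median was 14724.5 bp. Of peaks 1 to 5 kb from a gene, 4.13% were gained (320 peaks). The share was 5.61% at 5 to 20 kb (755 peaks), 6.93% at 20 to 50 kb (544 peaks) and 7.13% at 50 to 100 kb (253 peaks). Over 100 kb from a gene it was 4.69% (177 peaks). The share was thus larger in each bin out to 100 kb and smaller beyond it. Peak strength, with which the share also changed, was not matched between these bins.

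**Figure D3:**
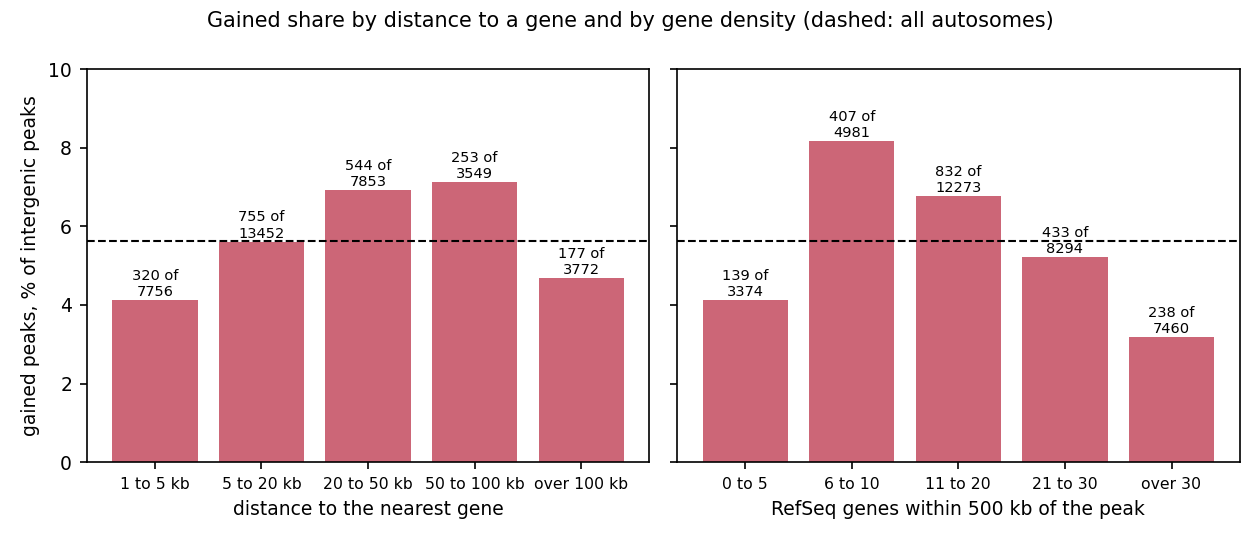
Gained peaks as a percentage of intergenic peaks (bars from 0, with the counts above) by distance to the nearest RefSeq gene on the left and by the number of genes within 500 kb on the right. The share is largest, 7.13%, at 50 to 100 kb, and 8.17% with 6 to 10 genes nearby; the dashed line is 5.63%.

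Gained peaks fell on either side of the nearest gene much as intergenic peaks did in general. By coordinates, 1012 of the 2049 (49.4%) lay below the gene, as did 49.3% of all intergenic peaks. The gene table has no strand, but the RefSeq promoter and miRNA tables give it for the nearest gene of 980 gained peaks (47.8%). Of these, 544 lay downstream of the gene and 436 upstream, so 55.5% were downstream, beside 54.8% of all intergenic peaks with a known strand. Within 20 kb of a protein-coding gene, 133 lay downstream and 137 upstream. The downstream share there was 49.3%, and that of all intergenic peaks in the same position was 53.4%.

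Only far from genes did the downstream share of the gained peaks pass that of all intergenic peaks by more than a few percentage points. At 50 to 100 kb it was 63.2% (74 of 117), beside 57.4%. Over 100 kb it was 72.3% (34 of 47), beside 54.2%. These peaks are few and neighbours share a gene, so they are not independent.

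Named genes in these positions show what the sides look like. The closest peak downstream of a gene with known strand, on chromosome 6 at 167552406 to 167552724, lay 1013 bp past the lncRNA gene LOC105378129 and went from 1.25 ± 0.453 to 2.84 ± 0.668 CPM (SD, n = 4). It was followed by a peak 1035 bp past the lncRNA gene LOC102724527 and a peak 1041 bp past ASB5, which encodes an ankyrin repeat protein of the SOCS box family. Past SEMA3C by 1054 bp lay the chromosome 7 peak at 80740933 to 80741483, and the gene encodes a secreted semaphorin that guides cell migration. It had 0.854, 1.55, 1.26 and 0.678 CPM in vehicle and 4.60, 4.06, 3.99 and 4.53 after sorbitol, a ratio of 3.95.

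On the upstream side, the closest peaks lay 1028 bp from the lncRNA gene SNCAIP-AS3, 1055 bp from PM20D2, a peptidase gene, and 1063 bp from GPRIN2. The peak at SNCAIP-AS3, on chromosome 5 at 122480116 to 122480592, had 1.51, 2.13, 2.12 and 2.24 CPM in vehicle and 4.51, 5.89, 4.68 and 5.15 after sorbitol. The other peaks had ratios of 2.51 at PM20D2 and 2.01 at GPRIN2. The smallest distance of all was 1003 bp, at the lncRNA gene LOC124905092 on chromosome 22, for which no strand is given here, and LOC105372869 on chromosome 1 had a gained peak 1022 bp away.

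The farthest gained peaks lay over 1 Mb from any gene, on chromosome 13 at 16566544 to 16566800 (1609936 bp), on chromosome 11 at 53064207 to 53064549 (1526930 bp) and on chromosome 13 at 16705494 to 16705731 (1471005 bp). These positions belong to the centromeric parts of both chromosomes, which consist of repeats, so counts there cannot be placed with certainty. They rose from 0.650 ± 0.147 to 1.44 ± 0.118, from 2.26 ± 0.652 to 4.57 ± 0.509 and from 1.11 ± 0.269 to 2.24 ± 0.900 CPM (SD, n = 4).

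By kind of nearest gene, 839 gained peaks (40.9%) were closest to a lncRNA gene, 602 (29.4%) to a pseudogene and 530 (25.9%) to a protein-coding gene. The shares over all intergenic peaks were 37.5%, 25.5% and 30.1%. Transcribed pseudogenes were nearest to 1.02% of gained peaks, beside 4.18% of all intergenic peaks. In all, 1549 genes were nearest to a gained peak, 1250 of them to exactly 1 and 106 to 3 or more. The genes with the most were RPS10P21 (14), LIN28AP1 (9), and LINC00358, LINC00364 and LSM1P2 (8 each), all pseudogenes or lncRNA genes.

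Counts at the ends of these genes came from peaks that the rule left out by position, in the same libraries. Gene-end peaks that met the CPM part of the rule (446 over all autosomal genes) were not removed. The 1549 genes had 865 tested peaks within 1 kb of an end, of which edgeR called 201 higher (23.2%) and 111 lower (12.8%). Over all autosomal gene-end peaks the shares were 8.75% higher and 33.1% lower. In the promoter window, from 250 bases before to 50 after the start, 73 of 425 peaks were higher and 76 lower, or 17.2% and 17.9%, beside 6.95% and 41.3% over all such windows. Genes with a gained peak within 20 kb downstream had 47 of 236 end peaks higher, and those with one within 20 kb upstream had 50 of 201. Of the end peaks of these last gene groups, 17.4% and 12.9% were called lower. Beside all gene-end peaks, the share called higher was thus larger and the share called lower smaller, on both sides of the genes. These differences were not tested.

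Lists of osmotic stress, immediate early, YAP target and kidney development genes addressed known responses and the tissue of origin. Gained peaks were nearest to a list gene in few cases, 2 of 12 intergenic peaks (16.7%) at osmotic stress genes, 1 of 20 at immediate early genes, 2 of 37 (5.41%) at YAP targets and 1 of 45 (2.22%) at kidney development genes. Beside the 5.63% over all intergenic peaks, these counts are too small to set any list apart. Most list genes had no intergenic peak for which they were the nearest gene, or none that was gained.

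The osmotic stress genes were SLC38A2, an amino acid transporter gene, and NFKBIZ, which encodes a nuclear regulator of NF-kappaB. The SLC38A2 peak, on chromosome 12 at 46354274 to 46354473, lay 3714 bp past the gene's end and had 0.920, 1.38, 1.21 and 1.15 CPM in vehicle and 2.78, 2.31, 2.60 and 2.65 after sorbitol. The NFKBIZ peak, on chromosome 3 at 101892139 to 101892341, lay 31116 bp past the gene and went from 0.661 ± 0.206 to 1.55 ± 0.448 CPM (SD, n = 4). The immediate early gene was DUSP5, a phosphatase gene acting on the kinase ERK, with a peak 2517 bp away on chromosome 10 at 110514051 to 110514293. It had 0.769 ± 0.316 CPM in vehicle and 2.37 ± 0.296 after sorbitol, a ratio of 3.08.

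FJX1, a YAP target related to a planar cell polarity regulator of flies, had 2 gained peaks past its end on chromosome 11. At 35629860 to 35630518, 8994 bp from the gene, vehicle libraries had 7.49, 5.06, 5.95 and 5.83 CPM and sorbitol libraries 13.5, 13.7, 13.8 and 10.6. At 35632282 to 35632660, 11416 bp from the gene, the mean rose from 1.53 ± 0.295 to 4.26 ± 0.717 CPM (SD, n = 4). The kidney development gene was OSR1, a zinc finger transcription factor gene, 115837 bp from a peak on chromosome 2 that went from 0.839 ± 0.188 to 1.89 ± 0.230 CPM.

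Part of the gained peaks lay close together, while most stood alone. With neighbours joined when at most 50 kb apart, 846 gained peaks (41.3%) formed 310 clusters of 2 or more, and 1203 stood alone. Pairs made up 209 of the clusters and groups of 3 another 54. There were 22 clusters of 5 or more, holding 166 gained peaks, on 7 chromosomes, and 8 of these clusters were on chromosome 13. Of intergenic peaks with another gained peak within 50 kb, 12.4% were gained themselves, beside 4.07% of those without one. Peaks are denser in some regions than in others, and the share of clustered peaks also depends on how many peaks are gained.

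The largest cluster held 16 gained peaks over 282 kb of chromosome 13, from 71924336 to 72206257, a stretch in which no RefSeq gene lies. Summed over its gained peaks, vehicle libraries had 19.0, 21.6, 21.2 and 23.9 CPM and sorbitol libraries 53.5, 50.01, 52.9 and 47.7. Ratios of the single peaks ranged from 2.02 to 3.35. The stretch held 22 more peaks, all intergenic and all with a log2 fold change above 0, of which edgeR called 12 higher and 0 lower. Peaks that did not meet the rule thus lay on the same side of 0 as those that did. Over all intergenic peaks, gained ones included, edgeR called 16.3% higher, and the median log2 fold change was 0.06. The stretch was picked for its many gained peaks in the same libraries, so these counts are a description. The same holds for the clusters below.

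The second cluster held 15 gained peaks over 234 kb of chromosome 13, from 67333127 to 67567465, around the lncRNA gene LINC00364. The sums were 27.7, 25.6, 29.1 and 38.0 CPM in vehicle and 67.2, 67.0, 68.7 and 63.9 after sorbitol, with vehicle 4 the highest and sorbitol 4 the lowest of their groups. Of the 41 other peaks in the stretch, 40 had a log2 fold change above 0, and edgeR called 30 higher and 0 lower. Past the end of LINC00364, 7 gained peaks followed each other at 8670 to 90936 bp from the gene.

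**Figure D4:**
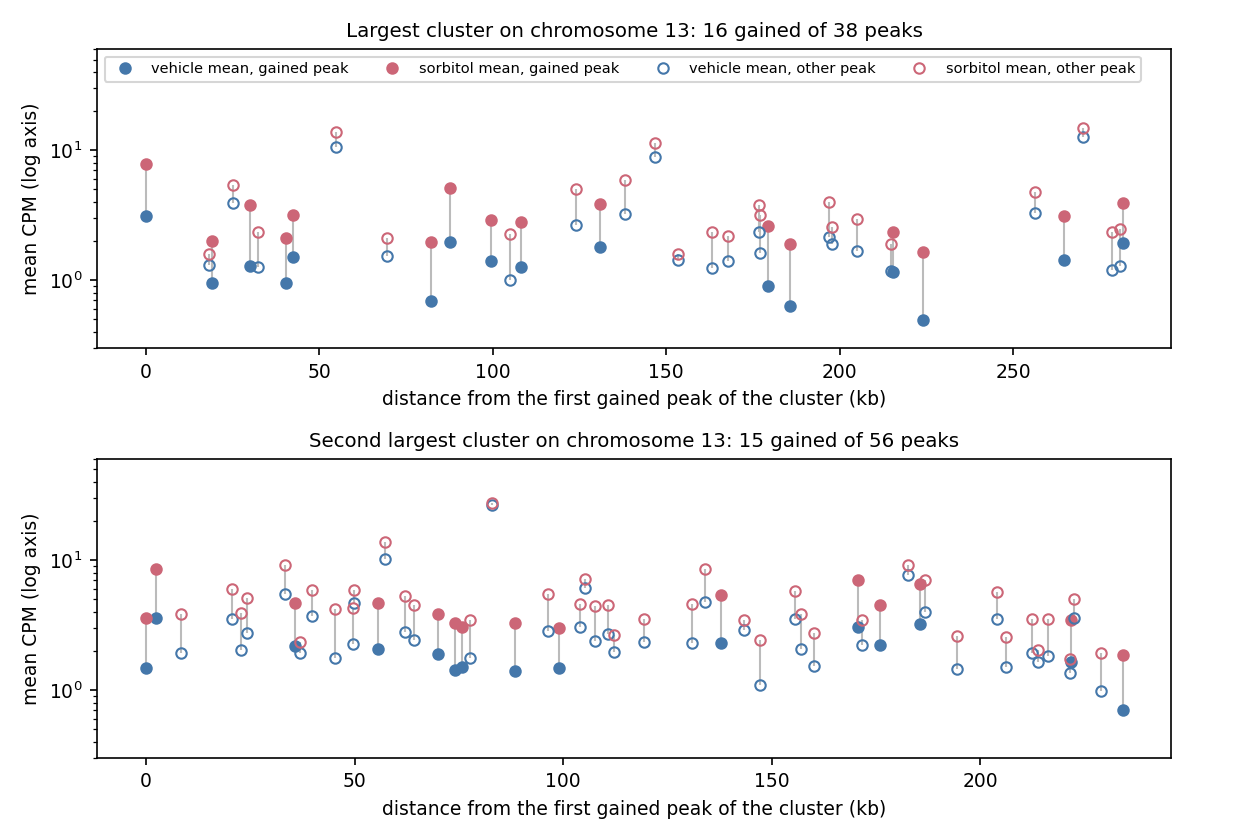
Mean CPM (log axis, 4 libraries a group) of every peak in the 2 largest clusters on chromosome 13, against the distance in kb from the first gained peak; filled circles are gained peaks, open circles other peaks, and a grey line joins the vehicle and sorbitol means. All 22 other peaks of the largest cluster, and 40 of 41 in the second, have a log2 fold change above 0.

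The next clusters had 11 or 9 gained peaks. That on chromosome 13 at 71217827 to 71412044 held 11 around the pseudogene RABEPKP1 and came within 25921 bp of the end of DACH1, a transcription factor gene. Its sum rose from 12.2 ± 1.54 to 30.7 ± 2.46 CPM (SD, n = 4). Of its 20 other peaks, 17 had a log2 fold change above 0, and edgeR called 6 higher and 0 lower. On chromosome 13 at 92889818 to 93165236, 9 gained peaks lay between GPC5 and GPC6, around the lncRNA gene LINC00363. GPC5 and GPC6 encode glypicans, proteoglycans of the cell surface. Their sum rose from 8.83 ± 1.77 to 20.6 ± 2.93 CPM, and all 17 other peaks in the stretch had a log2 fold change above 0, of which 6 were called higher.

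On chromosome 2, a cluster of 9 at 186778486 to 186928639 surrounded ZSWIM2, with 2 gained peaks past the end of the gene and 4 before its start. Its sum rose from 8.88 ± 1.43 to 24.1 ± 2.19 CPM (SD, n = 4). Of the 6 other peaks there, edgeR called 3 higher and 1 lower. The other cluster of 9, at 183267388 to 183413906, lay beside the pseudogene LIN28AP1, in a stretch without genes. Its sum rose from 7.39 ± 1.39 to 20.1 ± 3.33 CPM, and 9 of its 12 peaks were gained.

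Peaks near the gained ones had higher fold changes than distant ones. Among intergenic peaks that were not gained, the median log2 fold change was 0.29 within 5 kb of a gained peak, 0.26 at 5 to 20 kb, 0.20 at 20 to 50 kb, 0.13 at 50 to 200 kb, 0.01 at 200 kb to 1 Mb and -0.08 beyond. EdgeR called 26.1% of those within 5 kb higher and 2.21% lower, and 5.26% and 12.4% of those over 1 Mb away. Their median mean count was 35.4 at under 5 kb and 40.4 at over 1 Mb, and the median number of genes within 500 kb was 15 and 21. Gene density moved with the distance, and its part in the difference was not tested.

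Peaks inside genes did not show the same steady order. Their median log2 fold change was 0.20 at 5 to 20 kb from a gained intergenic peak (425 peaks), 0.28 at 20 to 50 kb, 0.23 at 50 to 200 kb, 0.14 at 200 kb to 1 Mb and -0.07 beyond. At gene ends it was lower in each farther bin, from 0.08 within 5 kb (93 tested peaks) to -0.25 over 1 Mb away, where 40.4% were called lower. The medians inside genes and at gene ends keep the peaks gained by the same CPM rule (4612 and 446 peaks). Gained peaks were left out of the intergenic medians, so the classes are not filtered alike. Medians near 0 depend on the scaling: library totals in place of TMM moved the median over all peaks from 0.01 to 0.09.

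**Figure D5:**
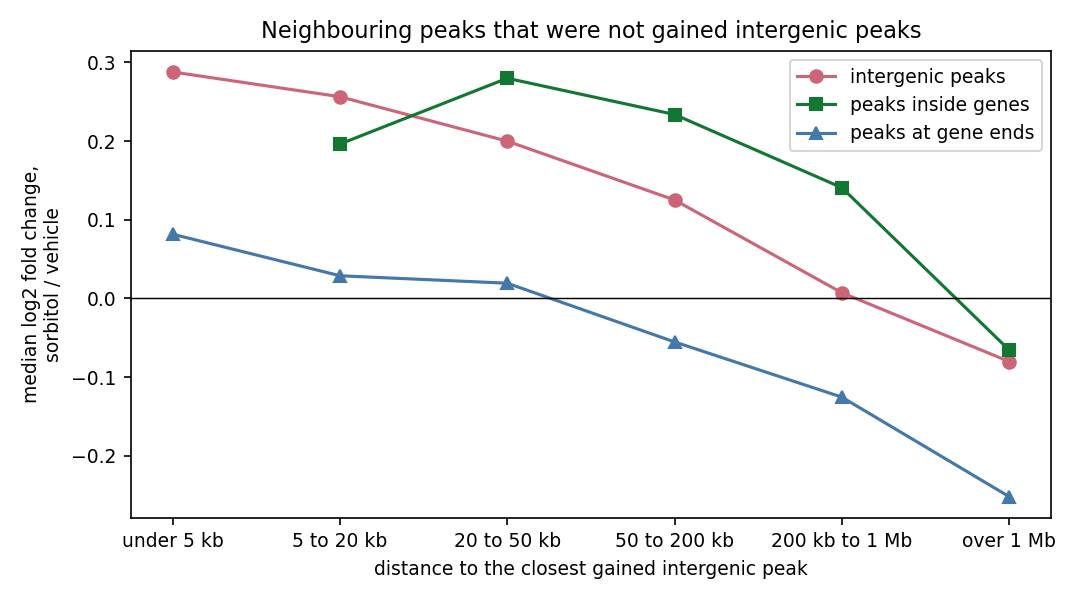
Median edgeR log2 fold change (sorbitol over vehicle) of autosomal peaks that are not gained intergenic peaks, by distance to the closest gained intergenic peak, for 3 classes of peaks; the bin of 16 peaks inside genes under 5 kb is left out. For intergenic peaks the median goes from 0.29 under 5 kb to -0.08 over 1 Mb. Peaks gained by the same CPM rule are kept in the classes inside genes and at gene ends.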

How the data were processed

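The authors deposited 1 table of raw counts per peak for 8 ATAC-seq libraries. Whether reads or fragments were counted, and how peaks were called and merged, is not given in the sources used here. The submitters' processing notes name the builds hg38 and GRCh38 and, without their roles, tools that include BWA 0.7.17 and MACS2 2.2.9.1. Columns were matched to samples by group and by replicate number. The lowest deposited start is 0, so starts were read as 0-based and are given here as 1-based GRCh38 positions.

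Genes were all 56752 autosomal entries with coordinates in the RefSeq table of GRCh38.p14, and strand came from the RefSeq promoter and miRNA tables (49.2% of these genes). Distances count the bases between peak and gene. The 4849 peaks outside chromosomes 1 to 22 were left out of the rule. Peak sequences were not analysed here, so the planned counts of GC content and motifs were not made.

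EdgeR 4.0.16 in R 4.3.3 was fitted to all peaks of all 8 libraries (filterByExpr with minimum count 10 and minimum total 15, TMM factors, quasi-likelihood test, Benjamini-Hochberg adjustment, threshold 0.05), with treatment as the only term. On simulated counts for 129487 peaks with 200 changed 2-fold, edgeR recovered 130 with 8 false calls, and DESeq2 1.42.0 recovered 115 with 5. As many peaks were raised as lowered there, and they were a far smaller share than the 29.1% called in the data. These numbers therefore check the code and do not measure performance on the data. Standard errors are the log2 fold change over the root of the F statistic.

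Named peaks were the 10 with the widest gap, the 5 with the largest ratio at a mean of at least 50 counts, the 6 largest clusters, the 3 closest to a gene on each side, the 3 farthest, 2 on each side of the threshold, and up to 2 per gene list. The peaks around RPL3 were added after their values were seen. Members, lists and rules were chosen with earlier results of these data known. The alternatives changed library scaling, fold, gene surroundings, gene set, count filter, cluster gap, test, pairing and libraries.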

Additional observations from a re-analysis of the deposited data

Results flagged for a closer look

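Of 84 sets of 4 values, 4 held a value far from its neighbours. Each set was a named peak, a named cluster or the share of counts in gained peaks in 1 treatment group. For independent sets not chosen by their values, chance alone gives about 4.2. The sets here were chosen by their values and in part share peaks, so that number is only a rough guide. Sorbitol 4 had 10.6 CPM at the FJX1 peak on chromosome 11 at 35629860, against 13.5 to 13.8 in the other sorbitol libraries. Sorbitol 2 had 22.4 CPM at the chromosome 2 peak at 234156240, against 24.7 to 25.1. Sorbitol 1 had 14.3 CPM at the chromosome 22 peak at 39301910, against 16.1 to 16.2. Vehicle 1 had 1.51 CPM at the SNCAIP-AS3 peak on chromosome 5, against 2.12 to 2.24. The rule requires the groups to be apart at these peaks, so that they are says nothing about these libraries.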

How the results depend on the processing

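The number of gained intergenic peaks was 2049. It was 4588 with a ratio of at least 1.5, 286 with at least 3, and 149 with a mean of at least 50 counts, since these rules admit more or fewer peaks. It was 1608 with TMM sizes, 1528 with DESeq2 size factors, 2143 with gene overlap alone barred, 1729 with 5 kb surroundings and 2988 with protein-coding genes only. Leaving out 1 library or 1 replicate pair gave 1980 to 3191, the highest without replicate 4 of both groups and the next, 2769, without vehicle 4.

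The 310 clusters became 815 at 1.5 times, 12 at 3 times, 14 with the count minimum and 154 with a 10 kb gap. The share of gained peaks in clusters, 41.3%, became 58.2%, 10.49%, 23.5% and 16.1% in the same order, and 53.5% with a 100 kb gap. Leaving out libraries gave 298 to 451 clusters and 40.5% to 48.1%. The median distance to a gene was 72573 bp with protein-coding genes only, beside 53208.5 bp for all peaks outside such genes, and 17961 to 19001 bp with libraries left out. The downstream share, 55.5%, became 48.9% with protein-coding genes only, beside 49.3% for all peaks outside such genes, and 48.0% with the count minimum. It ranged from 54.5% to 56.2% with libraries left out.

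EdgeR called 37717 peaks, 21406 with the count minimum, 23272 at the adjusted threshold of 0.01, and 30555 to 38658 with libraries left out. Of the gained peaks it called 2045, or 149 of 149 with the count minimum, 1770 at the threshold of 0.01, 1845 with a loess offset, 1990 with DESeq2's Wald test, and 1923 to 2022 with libraries left out. The loess offset moved their median log2 fold change from 1.16 to 1.00. Same-numbered libraries did not deviate together, so the numbers give no pairing (correlations of deviations 7.3e-05, 0.00647, -0.0309 and -0.132). With the replicate block, 34444 peaks and 2036 gained peaks were called. The choice of peaks all but fixes their direction, and 0 of 539 values for the 35 named peaks reversed. In 24 values a call was lost. These lay at the threshold peaks at 90465017 (chromosome 1), 27961200 (chromosome 3) and 63566584 (chromosome 13), the far peaks of chromosome 13 at 16566544 and 16705494, and the peaks at ASB5 and NFKBIZ. The log2 fold change at 63566584 was 0.90, and 0.58 without sorbitol 3. At 16705494 it was 0.93, 0.63 without sorbitol 1 and 0.81 without vehicle 3. The ASB5 value was 1.02, 0.71 without vehicle 2 and 0.80 without sorbitol 3, and the NFKBIZ call was lost without sorbitol 2 (0.95). Calls at 90465017 were lost without vehicle 2 (0.73), sorbitol 1 (0.79) or sorbitol 4 (0.91), and at 16566544 without vehicle 3 (0.95). At 27961200 they were lost without vehicle 3 (0.74), vehicle 4 (0.76), sorbitol 2 (0.77) or sorbitol 3 (0.94).

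Low counts limit single peaks. Sequence content and motifs were planned but not analysed.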
